A study of Mus musculus with 9 samples.

Results

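A pair of short hairpin RNAs against one liver transcript, lnc-Helf, was compared in livers of CCl4-treated mice: lnc-Helf-sh2#, the second hairpin, against lnc-Helf-sh1#, the first. The comparison took the read count columns of the 6 livers that received a hairpin against lnc-Helf, 3 with sh2# and 3 with sh1#, of 9 livers in the series, and it covered the 12693 of 17305 genes in the count table that passed a filter on low counts. The remaining 3 livers received a negative control virus (NC) and entered only where their values are named. The question was how far livers given hairpins against the same RNA resembled each other across the transcriptome.

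All 9 livers came from male Balb/c mice, 8 weeks old, that received carbon tetrachloride (CCl4), a hepatotoxin, for 8 weeks. Every mouse, controls included, was injected in the tail vein with 1e+12 pfu of an adeno-associated virus of serotype 8 (AAV8) at 4 weeks after the first CCl4 dose, as the sample labels state. The study's methods describe an earlier injection and a lower dose. The virus carried lnc-Helf-sh2#, lnc-Helf-sh1# or the NC hairpin. No source used here gives the promoter of the hairpin vector. RNA was taken from whole liver, so a lower level of a gene in a bulk sample cannot be told apart between fewer cells of a type and less RNA per cell. Albumin (Alb), the main plasma protein made by hepatocytes, took 7.49 to 12.4% of the counts in sh2 livers and 6.81 to 11.5% in sh1 livers.

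A short hairpin RNA is cut by Dicer into a small duplex, and Argonaute keeps one strand as the guide. Guide and target pair along their whole length when the intended RNA is cut, whereas pairing of the seed alone, bases 2 to 8 of the guide, can lower other mRNAs through sites in their 3′ untranslated regions (UTRs). A pair of hairpins against one RNA therefore shares its intended target and differs in its seed. AAV8 given by vein reaches hepatocytes far more than other liver cells.

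Both target sites are shown because they are what set the livers apart by design, with the bases that pair with guide bases 2 to 8 in capitals (mouse build GRCm38, minus strand, written 5′ to 3′ as in the RNA).
lnc-Helf-sh2# target: gctaaccaggaAATGAACt
lnc-Helf-sh1# target: gacctttcttaCCTCAGAa
The sh2# site lies at chr1:162898034-162898052, bases 309 to 327 of the transcript, and the sh1# site at chr1:162898147-162898165, bases 196 to 214, so their first bases are 113 bases apart. Both are in exon 2 of lnc-Helf, a transcript of 2 exons and 680 bases at chr1:162897681-162898720, which GENCODE release 21 places in the Fmo2 gene. Of its bases, 179 overlap exons of the protein-coding transcripts of Fmo2, a flavin-containing monooxygenase, and neither site touches those exons. Each target has 42.1% G and C and matches transcripts of 1 gene without mismatch, which is Fmo2. The count table holds 1 value per gene and none for lnc-Helf by itself.

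That value for Fmo2 was 168, 137 and 85.4 CPM (counts per 1e+06 reads counted) in sh2 replicates 1, 2 and 3, against 106, 118 and 99.9 CPM in sh1 replicates 1, 2 and 3, an order kept below. The groups overlapped, and the log2 fold change of sh2 over sh1 was 0.27 ± 0.23 (SE), with a 95% interval from -0.27 to 0.81. It was 0.05 without sh2 replicate 1 and 0.50 without sh2 replicate 3. On the scale of all 9 livers the NC controls had 227, 202 and 265 CPM. The sources used here do not state whether reads of lnc-Helf were counted into Fmo2, so this value is no check of the knockdown.

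The libraries held 14265875 to 16370918 counts in sh2 livers and 16347815 to 16679400 in sh1 livers. Livers of different hairpins lay about as far apart as livers of one hairpin. The mean distance between livers, as the root mean square log2 difference over all genes tested, was 0.462 between hairpins and 0.457 within them, a difference of 0.00553 (exact permutation test over the 10 splits of the 6 livers, two-sided p = 0.9, where 0.1 is the smallest possible). The nearest pair was sh1 replicates 1 and 2 at 0.267, and the farthest was sh2 replicate 1 and sh1 replicate 3 at 0.606. The first principal component, with 38.9% of the variance, had sh2 replicate 1 at -33.7 and sh2 replicate 3 at 21.3, and sh1 replicate 3 stood at 31.3, apart from sh1 replicates 1 and 2 at -8.09 and -5.99. Spread among livers of one hairpin was thus about as large as that between hairpins, and sh2 replicates 1 and 3 and sh1 replicate 3 stood at the ends of the first component.

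**Figure D1:**
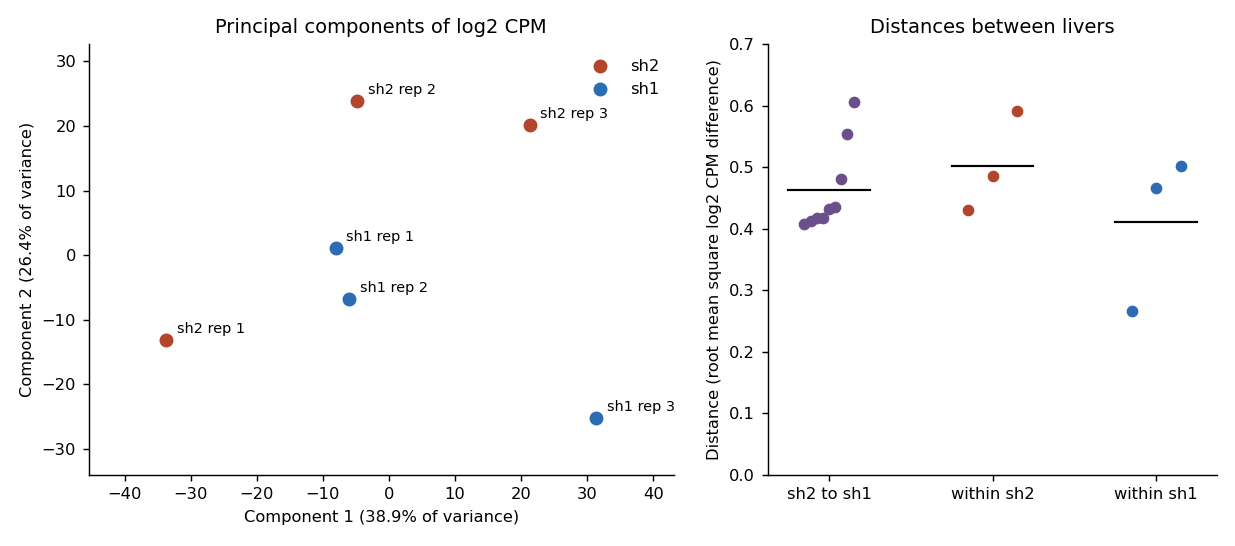
Left, the first and second principal components of log2 CPM over the genes tested, with 1 point a liver (sh2 red, sh1 blue). Right, the distance of each pair of livers, as the root mean square log2 difference, for pairs of different hairpins and pairs of one hairpin. The sh2 livers spread along the first component from -33.7 to 21.3, and the distances between hairpins overlap those within them.

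By edgeR's quasi-likelihood test no gene passed the thresholds of the study, a fold above 2 with an adjusted p under 0.05: 0 of 12693 genes (0%), with a lowest adjusted p of 0.6435. At an unadjusted p under 0.05 there were 467 genes higher in sh2 livers (3.68% of all tested) and 498 lower (3.92%), of which 38 and 42 also had a fold above 2. In 862 genes every sh2 liver was above every sh1 liver (6.79%), and in 942 every sh2 liver was below (7.42%). The log2 fold change was positive in 6394 genes and negative in 6299, and its 5th and 95th percentiles were -0.46 and 0.50. The 95% interval stayed within a fold of 2 in either direction for 10016 genes (78.9%) and within a fold of 1.5 for 5505 (43.4%), so for most genes a difference above 2-fold was outside the interval, while one of 1.5-fold was not. The spread between livers of one hairpin, as edgeR's common biological coefficient of variation, was 21.2%.

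DESeq2, run beside it, called 28 genes at an adjusted p under 0.05, of the 4447 to which it gave an adjusted p. Of these, 12 rose in sh2 livers (0.27%) and 16 fell (0.36%), and 8 had a fold above 2. The 3 that rose above 2-fold were Syvn1, Creld2 and Sdf2l1, all of the unfolded protein response. The 5 that fell by more than that were Phlda1, Rnf125, Gpcpd1, Gstm3 and Upp2. The calls therefore depended on the tool, and below "rose" and "fell" are used only of the 28.

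**Figure D2:**
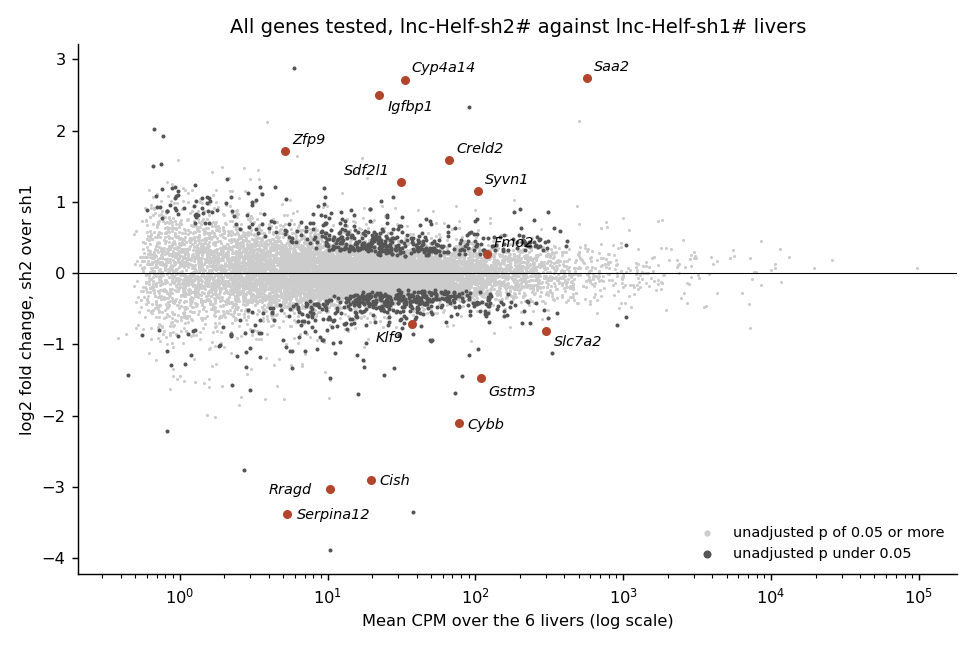
Each point is 1 of the 12693 genes, with its mean CPM over the 6 livers (log axis) and its log2 fold change of sh2 over sh1. Dark points had an unadjusted p under 0.05 by edgeR, red points are genes named in the text, and Fmo2, at 0.27, lies among the bulk of the genes.

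Genes of the unfolded protein response stood higher in sh2 livers. This response is set off when unfolded proteins gather in the endoplasmic reticulum (ER): the sensors Ern1, Atf6 and Eif2ak3 raise the chaperones, the translocation pores and the degradation machinery of that compartment. Of 32 genes of the list, 11 were higher at an unadjusted p under 0.05 (34.4%, beside 3.68% of all genes), 1 was lower, and 29 had a positive log2 fold change. The median log2 fold change of the list was 0.42, beside 0.0024 over all genes. This and the other lists were drawn up with earlier results of these data known. Their shares beside all genes are therefore descriptions and do not serve as a test.

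Creld2, an ER protein secreted under stress, had 42.7, 121 and 134 CPM in sh2 livers, against 31.5, 24.5 and 42.8 CPM in sh1 livers. Sh2 replicate 1 was level with the highest sh1 liver, and the other sh2 livers were far above (log2 fold change 1.59 ± 0.41, SE). Sdf2l1, a partner of the ER chaperone BiP, had 25.8, 51.6 and 56.8 CPM in sh2 livers, against 18.7, 13.6 and 23.1 CPM in sh1 livers, without overlap (1.27 ± 0.31). Syvn1, the ubiquitin ligase Hrd1 of ER-associated degradation, had 79.4, 194 and 159 CPM in sh2 livers, against 63.4, 55.2 and 75.9 CPM in sh1 livers, also without overlap (1.15 ± 0.31). DESeq2 gave these 3 genes adjusted p-values of 0.0147, 0.0216 and 0.0367 in that order. In each of them replicate 1 was the lowest sh2 liver.

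The other members higher at an unadjusted p under 0.05 were folding factors (Manf, Hyou1, Pdia4, Dnajb11), the translocation pore subunit Sec61b, and degradation genes (Herpud1, Derl3, Selenos), with log2 fold changes from 0.41 for Selenos to 0.95 for Derl3. Herpud1, which scaffolds the degradation complex, had 400, 405 and 537 CPM in sh2 livers and 265, 343 and 281 CPM in sh1 livers, without overlap. Hspa5, which encodes BiP, had 874, 1370 and 1740 CPM in sh2 livers and 766, 778 and 1071 CPM in sh1 livers, where sh2 replicate 1 lay within the sh1 range (0.61 ± 0.28, unadjusted p = 0.0622 by edgeR, or 0.36 without sh2 replicate 3). The sensor Ern1 was lower, at 10.2, 10.2 and 14.4 CPM in sh2 livers and 13.1, 15.8 and 27.7 CPM in sh1 livers (-0.70 ± 0.29). Summed over the list, sh2 livers had 6423, 8269 and 10540 CPM and sh1 livers 6031, 5661 and 6859 CPM, so the sums overlapped through sh2 replicate 1. The number higher at an unadjusted p under 0.05 was 7, 5 and 14 without sh1 replicates 1, 2 and 3. It was 16, 8 and 6 without sh2 replicates 1, 2 and 3. The list median stayed between 0.28 and 0.55 whichever liver was left out. Over all genes, 12835 to 12891 in these fits, the number higher was 381, 192, 319, 829, 261 and 626 in the same order. The number lower was 464, 283, 325, 658, 236 and 834. Leave-out counts of this list and those below move beside these numbers.

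The ER stress response element, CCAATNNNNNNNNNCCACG on either strand, was searched in RefSeq promoters of build GRCm38.p6 from 250 bases before to 50 after the start. It was present in 9 of 28 list genes with a promoter (32.1%: Calr, Canx, Creld2, Derl3, Dnajc3, Hsp90b1, Hspa5, Pdia6 and Syvn1). Over all genes of the count table with a promoter it was present in 25 of 13589 (0.184%), and over all promoters in 39 of 32851 (0.119%). The list was picked as genes of this response, so its share does not bear on the difference between the hairpins. Among these 9, Canx had a negative log2 fold change. Of the members higher at an unadjusted p under 0.05, only Creld2, Syvn1 and Derl3 were among these 9. Sdf2l1 and Herpud1, described above, were not. The promoters of Creld2, Syvn1 and Hspa5 are printed with the fixed letters of the element in capitals.
Creld2, chr15:88819396-88819695, plus strand, element from base 125 (reverse orientation): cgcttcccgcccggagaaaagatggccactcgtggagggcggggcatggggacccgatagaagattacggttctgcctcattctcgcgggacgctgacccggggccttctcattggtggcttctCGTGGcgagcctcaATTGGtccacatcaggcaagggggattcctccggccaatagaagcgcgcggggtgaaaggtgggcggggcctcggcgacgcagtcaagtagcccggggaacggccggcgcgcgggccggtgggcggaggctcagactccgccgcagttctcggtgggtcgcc
Syvn1, chr19:6046326-6046625, plus strand, element from base 207: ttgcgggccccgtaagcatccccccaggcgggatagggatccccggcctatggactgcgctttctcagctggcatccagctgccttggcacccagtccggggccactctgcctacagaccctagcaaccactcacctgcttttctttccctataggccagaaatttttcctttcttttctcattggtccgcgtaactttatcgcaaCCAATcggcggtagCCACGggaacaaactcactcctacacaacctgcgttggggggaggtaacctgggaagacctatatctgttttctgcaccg
Hspa5, chr2:34771840-34772139, plus strand, element from base 186: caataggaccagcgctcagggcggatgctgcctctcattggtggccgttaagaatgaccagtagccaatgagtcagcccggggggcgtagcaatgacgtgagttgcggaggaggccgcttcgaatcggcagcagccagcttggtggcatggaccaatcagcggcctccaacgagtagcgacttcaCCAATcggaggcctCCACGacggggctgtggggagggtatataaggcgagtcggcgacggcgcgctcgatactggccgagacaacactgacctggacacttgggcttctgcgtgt
The match describes letters in a window only.

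**Figure D3:**
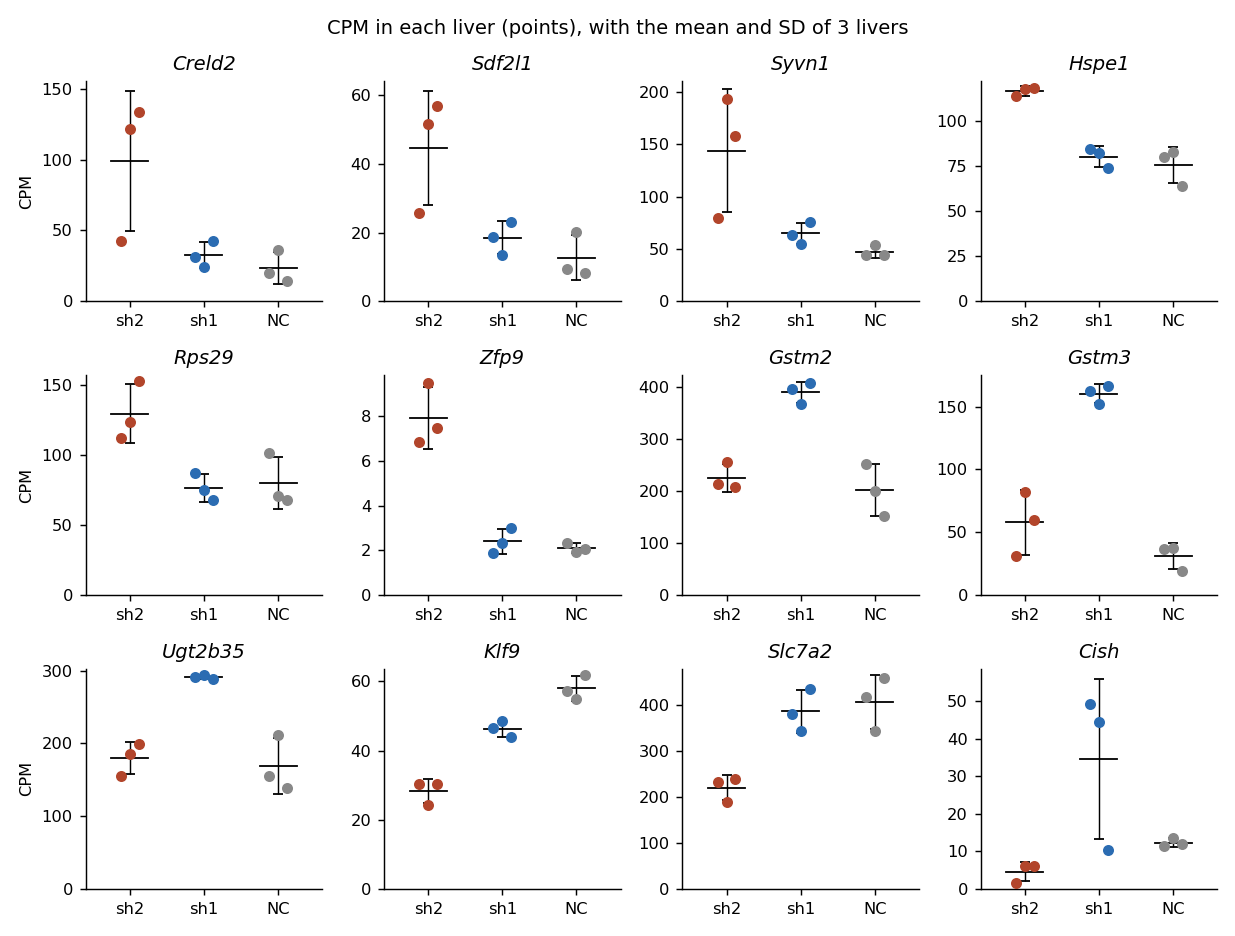
CPM of 12 genes in each liver (points), with the group mean and SD (bar), for sh2, sh1 and NC livers from left to right, with NC livers scaled over all 9 livers. The upper genes, such as Creld2, have their highest points in sh2 livers, Gstm2 and Gstm3 are highest in sh1 livers, and Klf9 and Slc7a2 are lowest in sh2 livers.

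Genes of the cytosolic ribosome moved by less but more evenly. Ribosomal proteins build the small and large subunits of the translating ribosome, and their mRNAs are short and abundant. Of 76 genes, 75 had a positive log2 fold change (98.7%), with a median of 0.36, and only Rps14 was negative. In 51 every sh2 liver was above every sh1 liver (67.1%, beside 6.79% of all genes) and 37 had an unadjusted p under 0.05 (48.7%, beside 3.68%). Rps29, of the small subunit, had 113, 124 and 153 CPM in sh2 livers and 87.3, 75.2 and 67.8 CPM in sh1 livers (0.76 ± 0.16). Rpl37, of the large subunit, had 105, 113 and 118 CPM in sh2 livers and 77.9, 80.8 and 66.5 CPM in sh1 livers (0.58 ± 0.12). Neither overlapped, and both rose in DESeq2, as did Rps12, Rps23, Rps25, Rps28 and Rplp2, at adjusted p-values from 0.0197 to 0.0496. Summed CPM of the list was 19120, 21060 and 18260 in sh2 livers and 16940, 15720 and 13750 in sh1 livers, without overlap. The number higher at an unadjusted p under 0.05 was 35, 17 and 17 without sh1 replicates 1, 2 and 3. Without sh2 replicates 1, 2 and 3 it was 37, 20 and 43. The median was 0.28 or more whichever liver was left out. Many ribosomal protein genes have near-identical pseudogene copies, between which reads of 50 bases can be split.

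Nuclear genes of oxidative phosphorylation, the mitochondrial respiratory chain and ATP synthase, had a median log2 fold change of 0.24, and 55 of 62 were positive. Of them 9 were higher at an unadjusted p under 0.05 (14.5%, beside 3.68% of all genes and 8.62% of the other short genes described below) and none lower. Cox4i1, a subunit of cytochrome c oxidase, had 267, 323 and 361 CPM in sh2 livers and 242, 236 and 203 CPM in sh1 livers, without overlap (0.48 ± 0.16). That count of 9 was 12, 4 and 1 without sh1 replicates 1, 2 and 3. Without sh2 replicates 1, 2 and 3 it was 23, 3 and 4. Of 19 heat shock genes, 18 were positive with a median of 0.28, and 3 were higher at an unadjusted p under 0.05 (15.8%, beside 3.68% of all genes). Hspe1, the mitochondrial co-chaperonin, rose in DESeq2 (adjusted p = 0.0216), with 113, 118 and 118 CPM in sh2 livers and 84.5, 81.9 and 73.5 CPM in sh1 livers (0.54 ± 0.11). The heat shock count was 11 without sh2 replicate 1 and 1 without sh2 replicate 2 or sh1 replicate 3.

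Transcript length moved with the difference between the hairpins. Over the 12530 genes with a length in GENCODE, the log2 fold change correlated with log2 length at r = -0.231, given across genes, which share the same 6 libraries. The genes were divided into 10 classes of length, and the median log2 fold change was 0.19 in the shortest class and -0.0855 and -0.0837 in the 2 longest. Within livers the same correlation, of each gene's deviation from its mean, was -0.004, -0.203 and -0.146 in sh2 livers and 0.044, 0.156 and 0.17 in sh1 livers. Ribosomal protein genes had a median length of 941.5 bases and OXPHOS genes 936.5, beside 3133.5 over all genes, and 60 of the 76 and 41 of the 62 lay in the shortest class, of 216 to 1321 bases. The other 1160 genes of that class had a median of 0.172, with 100 (8.62%) higher at an unadjusted p under 0.05. The ribosomal median of 0.36 was above that of the other short genes.

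In a fit with each liver's length trend removed, 13 ribosomal genes were higher and 1 lower at an unadjusted p under 0.05, with a median of 0.18 and 72 of 76 positive. For OXPHOS genes 1 was higher, with a median of 0.04. For the unfolded protein response, at a median length of 2430 bases, 9 were higher, with a median of 0.40. Among single genes given above, the log2 fold change in that fit was 0.42 for Rps29, 0.39 for Rpl37, 0.27 for Cox4i1 and 0.33 for Hspe1. The source of the length trend was not tested.

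**Figure D4:**
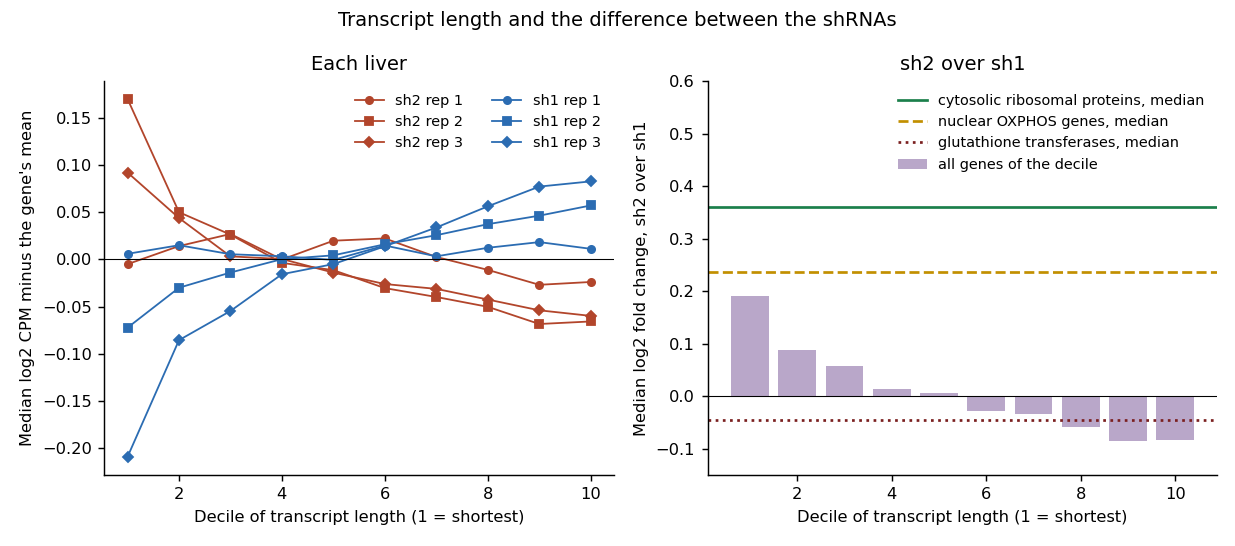
Left, the median deviation of log2 CPM from each gene's mean for 10 classes of transcript length, with 1 line a liver (sh2 red, sh1 blue). Right, the median log2 fold change of sh2 over sh1 for the same classes (bars), with the medians of ribosomal protein, OXPHOS and glutathione transferase genes (lines). Sh2 replicates 2 and 3 slope down and sh1 replicates 2 and 3 slope up, and the ribosomal median of 0.36 lies above the shortest class at 0.19.

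Part of the genes of drug and steroid conjugation were lower in sh2 livers at an unadjusted p under 0.05. UDP-glucuronosyltransferases and sulfotransferases attach sugar or sulfate to bilirubin, steroids and foreign compounds, and glutathione transferases do so with glutathione. Of 23 glucuronosyl and sulfotransferase genes, 7 were lower at an unadjusted p under 0.05 (30.4%, beside 3.92% of all genes), 7 had every sh2 liver below every sh1 liver (30.4%, beside 7.42%), and 21 were negative, with a median of -0.41. Ugt2b35 fell in DESeq2 (adjusted p = 0.00422), with 155, 186 and 199 CPM in sh2 livers and 292, 295 and 289 CPM in sh1 livers (-0.70 ± 0.14). Papss2, which makes the sulfate donor, had 144, 156 and 148 CPM in sh2 livers and 203, 216 and 176 CPM in sh1 livers (-0.41 ± 0.13). Neither gene overlapped between the groups. The other members lower at an unadjusted p under 0.05 were Sult1b1, Sult1d1, Ugt1a6a, Ugt3a1 and Ugt1a9. Ugt1a9 had 25.8, 46.3 and 31.2 CPM in sh2 livers and 63.9, 58.4 and 210 CPM in sh1 livers (-1.68, or -0.83 without sh1 replicate 3), and it shares its later exons with the rest of the Ugt1a cluster.

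Summed CPM of these enzymes was 3403, 4158 and 4546 in sh2 livers and 4939, 5589 and 4988 in sh1 livers, without overlap. The number lower at an unadjusted p under 0.05 was 3 without sh1 replicate 2 and 11 without sh2 replicate 3, and the list median stayed between -0.52 and -0.33 whichever liver was left out. With length trends removed 11 were lower and the median was -0.42.

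Of 21 glutathione transferase genes 3 were lower at an unadjusted p under 0.05 (14.3%, beside 3.92% of all genes), all of the mu class. Gstm2 fell in DESeq2 with the lowest adjusted p of all genes (0.000484), at 212, 255 and 207 CPM in sh2 livers and 395, 366 and 406 CPM in sh1 livers (-0.79 ± 0.15). Gstm3 also fell (adjusted p = 0.0018), at 31.5, 82.4 and 59.6 CPM in sh2 livers and 162, 152 and 167 CPM in sh1 livers (-1.47 ± 0.31). Gstm6 fell too (adjusted p = 0.0472 by DESeq2), at 85.4, 84.3 and 94.5 CPM in sh2 livers and 125, 121 and 137 CPM in sh1 livers (-0.53 ± 0.12). None of these overlapped. On the scale of all 9 livers the NC controls had 152 to 252 CPM of Gstm2 and 19.1 to 37.3 CPM of Gstm3, so sh1 livers stood far above the controls in both genes and sh2 livers close to them in Gstm2. The other mu class genes tested, Gstm1, Gstm4, Gstm7 and Gstm5, had log2 fold changes of -0.35, -0.31, -0.19 and 0.06 in that order. Gstm genes are close paralogs, and the split of reads among them is uncertain. One member was higher at an unadjusted p under 0.05, Gstt2, of the theta class (0.37 ± 0.13), and the median of the list was -0.05, which turned positive, at 0.0016 and 0.0045, without sh1 replicate 1 or sh2 replicate 1. With length trends removed it was -0.25, with 17 of 21 negative and 5 lower, and 15 of the 21 lie in the shortest class.

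Cytochrome P450 genes, which oxidise drugs and steroids, followed in part. Cyp3a11, the most abundant of its subfamily here, had 2643, 6604 and 6649 CPM in sh2 livers and 9483, 8479 and 9198 CPM in sh1 livers, without overlap, the lowest liver being sh2 replicate 1 (-0.77 ± 0.36, unadjusted p = 0.0661 by edgeR, or -0.45 without that liver). Cyp3a25 had 430, 737 and 903 CPM in sh2 livers and 1129, 1046 and 1243 CPM in sh1 livers, again without overlap (-0.72 ± 0.27, or -0.47 without sh2 replicate 1). NC controls had 6394 to 6618 CPM of Cyp3a11. Of 13 Cyp3a and Cyp1 genes, 2 were lower at an unadjusted p under 0.05, and of 31 Cyp2 genes, 4 were, Cyp2b10 and Cyp2c55 among them, with none higher (15.4% and 12.9%, beside 3.92% of all genes). The Cyp3a and Cyp1 median was however -0.0036, with 6 of the 13 positive, the highest being Cyp3a44 (0.95 ± 0.56). Of the Cyp2 genes 11 were positive. Every sh2 liver was above every sh1 liver in 2 of them (6.45%, beside 6.79% of all genes) and below in 3 (9.68%, beside 7.42%). Without sh1 replicate 1 no Cyp3a or Cyp1 gene was lower at that p, and Cyp2b10 was -0.73 in place of -1.21. The Cyp2 median of -0.20 was -0.08 without sh2 replicate 1, -0.13 without sh1 replicate 3 and -0.34 without sh2 replicate 3.

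Of 25 bile acid genes, 3 were lower at an unadjusted p under 0.05 (12%, beside 3.92% of all genes) and 20 negative (median -0.28), and of 22 xenobiotic transporters 2 were lower (9.09%) and 18 negative (median -0.18). These lists moved with single livers: the bile acid median was -0.11 without sh2 replicate 1 and -0.44 without sh2 replicate 3, with 1 to 8 genes lower over the livers left out. The transporter median was -0.11 and -0.34 without the same livers, with 1 to 5 lower. Slco1a4, an uptake transporter of organic anions in both lists, had 28.4, 48.7 and 26.6 CPM in sh2 livers and 68.1, 77.4 and 53.8 CPM in sh1 livers, without overlap (-0.94 ± 0.25), and NC controls had 63.2 to 68.2 CPM. These genes are expressed in hepatocytes, of which the pericentral genes had 22 of 27 negative (median -0.15). Of the 27, 1 was lower at an unadjusted p under 0.05 (3.7%, beside 3.92% of all genes). The periportal genes had 18 of 25 negative (median -0.09) with none lower at that p. Over the livers left out these medians ran from -0.40 to -0.06 and from -0.32 to -0.01, lowest without sh2 replicate 3 in both.

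Several single genes had groups without overlap, as had 6.79% of all genes with sh2 livers above and 7.42% with sh2 livers below. They were named for a low p, or for a large change with no overlap, so their separation follows from that choice. Zfp9, a zinc finger protein, had the lowest unadjusted p of all (0.000129 by edgeR), with 6.84, 9.46 and 7.45 CPM in sh2 livers, against 1.89, 2.34 and 3.00 CPM in sh1 livers. The groups were far apart, at 3.27-fold (log2 fold change 1.71, 95% interval 1.14 to 2.28), and the NC controls, at 1.90 to 2.35 CPM, were level with sh1 livers. DESeq2 gave Zfp9 no adjusted p, since its filter on mean counts set the gene aside. Ung, the uracil-DNA glycosylase of base excision repair, had 14, 13.4 and 10.1 CPM in sh2 livers and 7.38, 6.24 and 5.59 CPM in sh1 livers (0.96 ± 0.19), with NC controls at 4.65 to 4.86 CPM. Snrpf, a core protein of the spliceosomal snRNPs, and Romo1, a small protein of the inner mitochondrial membrane, were also among the 10 genes of lowest p and higher, at 0.75 ± 0.15 and 0.61 ± 0.12. With length trends removed Snrpf was 0.57 and Romo1 0.35.

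Among genes lower in sh2 livers, Klf9, a transcription factor induced by glucocorticoids and thyroid hormone, had 30.2, 24.2 and 30.5 CPM, against 46.5, 48.5 and 44.0 CPM in sh1 livers (-0.71 ± 0.12, DESeq2 adjusted p = 0.017). NC controls had 54.9 to 61.8 CPM, so both kinds of hairpin liver were below the controls and sh2 livers further. Slc7a2, the cationic amino acid transporter that carries arginine, had 231, 188 and 239 CPM in sh2 livers and 380, 342 and 435 CPM in sh1 livers (-0.81 ± 0.16, DESeq2 adjusted p = 0.00292), with NC controls at 343 to 458 CPM, level with sh1 livers. Rbl2, the pocket protein p130 that holds cells in quiescence, had 26.9, 20.3 and 25.2 CPM in sh2 livers and 37.0, 39.0 and 38.4 CPM in sh1 livers (-0.66 ± 0.13, DESeq2 adjusted p = 0.0472). Cdc14b, a cell cycle phosphatase, had 18.2, 14.6 and 15.3 CPM in sh2 livers and 24.9, 25.8 and 26.4 CPM in sh1 livers (-0.68 ± 0.12), the last level with NC controls at 26.4 to 26.7 CPM. Rnf125, a ubiquitin ligase of antiviral signalling, fell in DESeq2 (adjusted p = 0.0224), with 41.7, 41.7 and 85.9 CPM in sh2 livers and 125, 118 and 131 CPM in sh1 livers (-1.14 ± 0.28). None of these genes overlapped between the hairpins, a separation that their choice by low p or by no overlap favours.

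Upp2, the liver uridine phosphorylase, which the naming rule did not reach and which was chosen after its values were seen, fell in DESeq2 (adjusted p = 0.00277), with 221, 161 and 238 CPM in sh2 livers and 398, 584 and 363 CPM in sh1 livers (-1.12 ± 0.23). Gpcpd1, a glycerophosphocholine phosphodiesterase, fell as well, at 16.0, 13.1 and 19.3 CPM in sh2 livers and 24.3, 36.8 and 60.2 CPM in sh1 livers (-1.33 ± 0.32). The remaining DESeq2 calls were Cdk2ap2, which rose, and Phlda1, Gsap, Kcnk5, Klhl24, Acsm5 and Gabarapl1, which fell. Phlda1 had 28.8, 46.9 and 54.9 CPM in sh2 livers and 151, 150 and 55.5 CPM in sh1 livers, so sh1 replicate 3 was level with sh2 livers.

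Other genes above 5 CPM with large positive changes, an unadjusted p under 0.05 and no overlap served unlike functions: Cyp21a1 (steroid 21-hydroxylase), Tspyl2, Ccdc134, Cxcl14 (a chemokine), Cad (the first steps of pyrimidine synthesis), Piga (the first step of GPI anchors) and Mdn1 (ribosome assembly), with log2 fold changes from 0.82 for Mdn1 to 1.2 for Cyp21a1. Cyp21a1 had 7.98, 21.9 and 9.53 CPM in sh2 livers and 6.83, 5.82 and 4.53 CPM in sh1 livers, the difference lying mostly in sh2 replicate 2. Without that liver the log2 fold change was 0.61 for Cyp21a1, 0.68 for Tspyl2 and 0.24 for Mdn1, and without sh2 replicate 3 that of Cxcl14 was 0.60 in place of 0.94. Cad had 12.5, 16.5 and 18.4 CPM in sh2 livers and 9.51, 7.14 and 9.42 CPM in sh1 livers, spread over all 3. Among genes lower in sh2 livers, Lmbrd2, a membrane protein, had 7.78, 4.29 and 9.19 CPM, against 11.9, 15.6 and 18.6 CPM in sh1 livers (-1.12 ± 0.29).

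The largest fold changes rested on 1 or 2 livers. Serpina12, the adipokine vaspin, had 0.671, 0.995 and 1.14 CPM in sh2 livers and 1.46, 1.38 and 26.5 CPM in sh1 livers, with a log2 fold change of -3.38, or -0.60 without sh1 replicate 3. Rragd, a GTPase that brings mTORC1 to lysosomes, had 2.15, 2.12 and 2.55 CPM in sh2 livers and 2.81, 2.94 and 49.6 CPM in sh1 livers (-3.02, or -0.34 without that liver). In both genes a single sh1 liver carried the difference. NC controls varied as widely, with 18.6, 17.6 and 0.40 CPM of Serpina12 and 34.0, 18.8 and 2.74 CPM of Rragd.

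Cish, a feedback inhibitor of cytokine and growth hormone signalling through STAT5, had 1.68, 6.16 and 6.04 CPM in sh2 livers and 49.2, 44.5 and 10.2 CPM in sh1 livers (-2.90 ± 0.65), with NC controls at 11.4 to 13.6 CPM. All sh2 livers were below the controls, and sh1 replicates 1 and 2 were above them. Bcl6, a repressor that growth hormone holds down, ran the other way, at 53.4, 34.0 and 25.0 CPM in sh2 livers and 9.76, 14.8 and 28.8 CPM in sh1 livers, with an overlap (1.07 ± 0.41, or 0.73 without sh2 replicate 1). Igfbp1, an insulin-like growth factor binding protein raised in fasting, had 46.1, 6.72 and 60.3 CPM in sh2 livers and 8.96, 4.92 and 6.06 CPM in sh1 livers (2.5 ± 0.69), and sh2 replicate 2 lay among the sh1 livers. Over the 20 genes of the growth hormone and IGF axis, 3 were higher and 1 lower at an unadjusted p under 0.05, with a median of -0.01. These are 15% and 5%, beside 3.68% and 3.92% of all genes. The number higher was 1 without sh1 replicate 1, sh2 replicate 1 or sh2 replicate 2. Without sh2 replicate 3, 4 were higher and 4 lower. Myc, a growth regulator, had 6.10, 7.28 and 9.26 CPM in sh2 livers and 42.1, 26.5 and 4.71 CPM in sh1 livers, also with an overlap (-1.69 ± 0.64, or -1.05 without sh1 replicate 1).

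Fatty acid hydroxylases of the Cyp4a family, known targets of PPARA, differed among sh2 livers. Cyp4a14 had 94.5, 72.9 and 5.50 CPM in sh2 livers and 6.10, 9.36 and 10.9 CPM in sh1 livers, while NC controls had 137 to 366 CPM. Sh2 replicate 3 was the lowest of the 6, and without it Cyp4a14 passed the adjusted test of edgeR (log2 fold change 3.25, adjusted p = 0.04999), together with Rnf125 (-1.58). Of 13 Cyp4 genes 3, Cyp4a10, Cyp4a14 and Cyp4a31, were higher at an unadjusted p under 0.05 (23.1%, beside 3.68% of all genes), and they are close paralogs. That count was 1 without sh1 replicate 1. Of the 13 genes 8 were negative (median -0.11), and none had groups without overlap.

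Genes of fibrosis, the process for which the study knocked lnc-Helf down, did not separate the hairpins beyond the spread between livers. Col1a1, a chain of type I collagen, had 222, 164 and 84.4 CPM in sh2 livers and 127, 116 and 44.1 CPM in sh1 livers, and the groups overlapped (0.71, 95% interval -0.32 to 1.74, or 0.38 without sh2 replicate 1 and 0.36 without sh1 replicate 3). Acta2, the smooth muscle actin of activated stellate cells, had 6.57, 2.80 and 2.95 CPM in sh2 livers and 2.44, 4.44 and 1.82 CPM in sh1 livers (0.50, 95% interval -0.54 to 1.54, or -0.01 without sh2 replicate 1). Both intervals included no difference and a difference of more than 2-fold. None of 20 collagen chains passed an unadjusted p under 0.05, with a median of 0.17 that was -0.04 without sh2 replicate 1 and 0.02 without sh1 replicate 3. Of 46 matrix remodelling genes 1 was higher at that p (2.17%, beside 3.68% of all genes). Of 23 stellate cell markers 2 were lower (8.7%, beside 3.92%), Colec10 among the markers named (-0.49 ± 0.21). Without sh1 replicate 3 or sh2 replicate 2 the count of lower stellate markers was 0. Of 30 TGF-beta pathway genes 1 was higher and 1 lower (3.33% each, beside 3.68% and 3.92% of all genes). In 5 every sh2 liver was below every sh1 liver (16.7%, beside 7.42% of all genes). Among them was Skil, a repressor of SMADs, at 15.5, 14.5 and 15.6 CPM in sh2 livers and 18.9, 18.2 and 20.3 CPM in sh1 livers.

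Over the 17 genes that the study itself measured in CCl4 livers, 1 was lower at an unadjusted p under 0.05, Adgre1 (5.88%, beside 3.92% of all genes). The median was -0.05, or -0.17 without sh2 replicate 1 and 0.09 without sh1 replicate 3. Adgre1, the macrophage marker F4/80, had 14.2, 11.1 and 14 CPM in sh2 livers and 14.7, 20.4 and 70.2 CPM in sh1 livers (-1.43, or -0.43 without sh1 replicate 3), with NC controls at 29.5 to 71.0 CPM. Itgam, which marks recruited myeloid cells, had 9.46, 8.40 and 11.1 CPM in sh2 livers and 5.61, 17.5 and 26.8 CPM in sh1 livers, with an overlap (-0.79, or -0.26 without sh1 replicate 3). Il1b, an inflammatory cytokine, had 2.21, 4.36 and 3.96 CPM in sh2 livers and 3.84, 3.48 and 13.7 CPM in sh1 livers, the last liver again the highest (-0.99, or -0.06 without it).

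Macrophage and interferon genes were high in sh1 replicate 3, and this liver set the sign of several lists. Of 39 monocyte and macrophage genes 31 were negative (median -0.21, or 0.01 without sh1 replicate 3 and -0.32 with length trends removed), with 3 lower at an unadjusted p under 0.05 (7.69%, beside 3.92% of all genes), 0 without sh1 replicate 3 or sh2 replicate 2 and 8 without sh1 replicate 1. Of 47 interferon-stimulated genes 34 were negative (-0.24, or 0.14 without it), and of 28 inflammasome and cytokine genes 22 (-0.25, or 0.03). Cybb, the catalytic subunit of the phagocyte oxidase, had 31.7, 30.2 and 25.6 CPM in sh2 livers and 27.3, 34.0 and 315 CPM in sh1 livers (-2.10, or -0.07 without it). Of 19 markers of Kupffer cells, the resident macrophages of the liver, 17 were negative (median -0.25, or -0.08 without sh1 replicate 3 and -0.40 with length trends removed). At an unadjusted p under 0.05, 3 were lower (15.8%, beside 3.92% of all genes), 1 without sh2 replicate 2 and 5 without sh1 replicate 1 or 2. In 5 every sh2 liver was below every sh1 liver (26.3%, beside 7.42%). Slc40a1, the iron exporter ferroportin, had 114, 122 and 122 CPM in sh2 livers and 151, 161 and 183 CPM in sh1 livers (-0.47 ± 0.12), without overlap. Timd4, a receptor for dying cells, had 3.22, 3.48 and 3.96 CPM in sh2 livers and 5.49, 5.04 and 12.2 CPM in sh1 livers (-1.09, or -0.57 without sh1 replicate 3). Of 18 neutrophil and 14 T and NK cell genes tested, 1 (5.56%, beside 3.92% of all genes) and 0 were lower at an unadjusted p under 0.05, at medians of -0.42 and -0.55. Without sh1 replicate 3 these medians were -0.10 and -0.19, and that of the T and NK cell genes was 0.20 over the genes with a mean of at least 1 CPM.

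Cell division and the acute phase varied within hairpins. DNA replication genes had a median of 0.54, with 31 of 34 positive, but 1 higher at an unadjusted p under 0.05, Tyms (2.94%, beside 3.68% of all genes). The median was -0.16 without sh2 replicate 1 and 0.20 without sh1 replicate 3. Without sh2 replicate 3, 7 were higher at that p. Their summed CPM was 852.1, 470 and 310 in sh2 livers and 530.8, 521.5 and 288.1 in sh1 livers, so replicate 3 of both hairpins was lowest. Of 32 mitosis genes none passed and none had an interval within a fold of 2, and Mki67, a marker of cycling cells, had 59.4, 23.0 and 10.7 CPM in sh2 livers and 44.8, 40.2 and 11.4 CPM in sh1 livers. Saa2, a serum amyloid of the acute phase, ranged over 9.59, 152 and 2788 CPM in sh2 livers and 9.39, 15.7 and 417 CPM in sh1 livers, and its close paralog Saa1 shares reads with it. Of 29 acute phase genes none had an unadjusted p under 0.05, and the median of 0.13 was -0.52 without sh2 replicate 3 and 0.08 with length trends removed. Without sh1 replicate 3 it was 0.67, with 7 of 29 higher at an unadjusted p under 0.05.

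**Figure D5:**
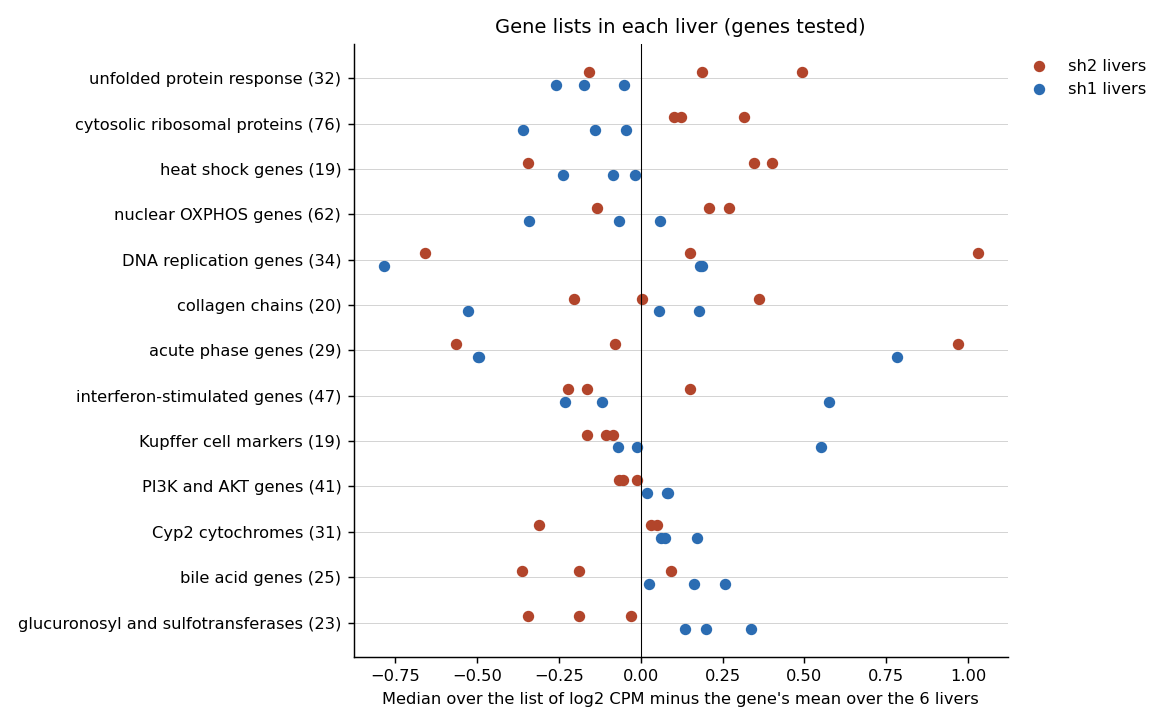
For 13 gene lists, the median over the list of log2 CPM minus each gene's mean over the 6 livers, with 1 point a liver (sh2 red, sh1 blue) and the number of genes tested in brackets. The groups do not overlap for ribosomal protein, glucuronosyl and sulfotransferase, Cyp2, PI3K and AKT and Kupffer cell genes, while single livers carry the extremes of DNA replication, acute phase and interferon genes.

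The study also examined the RNA-binding protein PTBP1 and Pik3r5, which encodes a regulatory subunit of PI3-kinase. Ptbp1 had 160, 152 and 150 CPM in sh2 livers and 155, 154 and 154 CPM in sh1 livers, a log2 fold change of -0.0024 with a 95% interval from -0.26 to 0.25, which bounds the difference well within 2-fold. Pik3r5 had 4.76, 3.92 and 2.62 CPM in sh2 livers and 3.29, 3.78 and 7.83 CPM in sh1 livers (-0.40, 95% interval -1.29 to 0.49), and NC controls had 9.35 to 16.7 CPM, above all 6. A difference was not detectable in either gene, and for Pik3r5 the interval reached beyond 2-fold. Of 41 PI3K and AKT genes, 4 were lower and none higher at an unadjusted p under 0.05 (9.76%, beside 3.92% of all genes), 6 had every sh2 liver below every sh1 liver (14.6%, beside 7.42%), and 31 were negative (median -0.14, or -0.07 with length trends removed, at a median length of 5691 bases). The count of 4 was 2 without sh1 replicate 2, without sh2 replicate 2 or with length trends removed, and 7 without sh2 replicate 3. Pik3c2g, a class II PI3-kinase of liver, had 16.0, 10.7 and 14.4 CPM in sh2 livers and 19.8, 22.1 and 26 CPM in sh1 livers (-0.72 ± 0.18), and Tsc1, a brake on mTORC1, was 15.6 to 16.7 CPM in sh2 livers and 19.7 to 22.3 CPM in sh1 livers (-0.36 ± 0.11). Of 15 PTBP family genes, 1 was lower at an unadjusted p under 0.05 (6.67%, beside 3.92% of all genes) and none higher. It was Ptbp3, at 84.0, 65.0 and 79.0 CPM in sh2 livers and 95.5, 99.8 and 115 CPM in sh1 livers (-0.44 ± 0.14).

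The machinery that hairpins use was compared as well. Of 14 RNA interference genes 3 were lower in sh2 livers at an unadjusted p under 0.05 (21.4%, beside 3.92% of all genes), without overlap (beside 7.42%), and none higher, with a median of -0.06. Tnrc6b, which recruits the deadenylases that act on targets of small RNAs, had 27.2, 27.6 and 27.3 CPM in sh2 livers and 35.6, 37.4 and 33.6 CPM in sh1 livers (-0.38 ± 0.10). Ago2, the Argonaute that cuts, had 5.77, 5.54 and 6.37 CPM in sh2 livers and 7.2, 8.58 and 10.9 CPM in sh1 livers (-0.60 ± 0.20). Prkra, a partner of Dicer, was the third (-0.32 ± 0.12). The list had the longest median transcript of those described, 6882 bases, and with length trends removed 3 were again lower with a median of -0.0015.

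Genes were then sorted by whether a 3′ UTR in GENCODE held the 7 bases shown in capitals above, AATGAAC for sh2# or CCTCAGA for sh1#. Of 12503 genes with a 3′ UTR, 977 held only the sh2# match (7.81%), 1880 only the sh1# match (15%), 355 both and 9291 neither. The median log2 fold change was -0.07 for genes with the sh2# match only, -0.02 for the sh1# match only, -0.08 for both and 0.02 for neither. Of genes with only the sh2# match 75 were lower at an unadjusted p under 0.05 (7.68%) and 17 higher (1.74%). Of genes with only the sh1# match 87 were lower (4.63%) and 42 higher (2.23%), and of genes with neither 301 were lower (3.24%) and 394 higher (4.24%). Genes with either match thus lay on the lower side of those with none.

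These sets differ in length, with a median 3′ UTR of 2309 bases for the sh2# match, 2178 for the sh1# match and 886 for neither. With length trends removed, the medians were -0.02 for the sh2# match, 0.02 for the sh1# match and 0.01 for neither, and 4.91%, 2.77% and 2.6% of genes were lower at an unadjusted p under 0.05. The share of lower genes then remained higher for the sh2# match than for the others, and the medians lay within 0.04 of each other. In that fit 24 of 977, 53 of 1880 and 297 of 9291 genes were higher in the same order. The trend removed was that of the whole transcript, not of the 3′ UTR. The source of the remaining difference was not tested. A match describes letters in the 3′ UTR and not a site.

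Near matches to the whole targets were few. Transcripts of no other gene lay within 1 mismatch of either target, 2 genes lay at 2 mismatches for each, and 27 for sh2# and 26 for sh1# at 3. Of the 10 such genes tested for sh2#, none had an unadjusted p under 0.05 or separate groups, and the median log2 fold change was -0.04. Of the 14 for sh1#, 2 were lower in sh2 livers at an unadjusted p under 0.05, Mycl (-0.67) and Tmem245 (-0.83), beside 3.92% of all genes. Both were thus higher in sh1 livers, whose hairpin target they resemble. In 3 of the 14 every sh2 liver was below every sh1 liver and in 1 above, beside 7.42% and 6.79% of all genes, and the median was -0.17.

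In the remaining 24 gene lists, which held 5 to 36 genes tested each, at most 2 genes were higher and at most 3 lower at an unadjusted p under 0.05. Medians ran from -0.29 to 0.23. The largest shares lower were 3 of 20 G1 cyclin and inhibitor genes (15%) and 3 of 22 iron genes (13.6%), beside 3.92% of all genes. The largest share higher was 2 of 22 immediate early genes (9.09%, beside 3.68%), of which 2 were also lower. The limits on counts and medians moved with single livers. Without sh2 replicate 3 up to 9 genes of a list were lower, those of insulin and gluconeogenesis, and without sh2 replicate 1 up to 6, those biased to females. Up to 5 genes of a list were higher without any one of the sh2 livers, up to 4 without sh1 replicate 3 and up to 3 without sh1 replicate 2, and medians reached from -0.45 to 0.41. These lists covered, among others, G1 cyclin, immediate early, clock, sex-biased, fasting, lipid, iron, complement, antigen presentation and blood cell genes and qPCR references. Of 32 liver endothelial genes 1 was lower (3.12%, beside 3.92% of all genes) and none higher. Of 18 cholangiocyte genes 1 was higher (5.56%, beside 3.68%), Sox9, a biliary transcription factor, at 9.39, 9.21 and 10.5 CPM in sh2 livers and 6.53, 4.86 and 7.59 CPM in sh1 livers (0.61 ± 0.20).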

How the data were processed

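Total RNA of whole liver was sequenced on BGIseq500 with single-end reads of 50 bases. Mapping and counting used tools listed in the submitters' processing notes, namely BWA, Bowtie2 and RSEM (versions not given in the sources used here). The build named for the files is hg19 although the genes are mouse genes, so no gene coordinates were taken from them. The authors deposited expected counts, FPKM and TPM per gene for 17305 genes. The expected counts were used, of which 8.15% were not whole and were rounded. The deposited FPKM served as an alternative on log2(FPKM + 1) and log2(FPKM + 0.1) with limma, and the deposited TPM and the authors' fold changes and p-values were not used. Spreadsheet dates were restored to symbols in 22 genes, and 17198 rows carried a RefSeq gene number.

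Genes were filtered with filterByExpr (minimum count 10), libraries scaled by TMM (factors 0.911 to 1.05), and the 3 sh2 and 3 sh1 livers compared with edgeR's quasi-likelihood test and Benjamini-Hochberg adjustment over all 12693 genes, without a replicate block. CPM of these livers are on the scale of the 6, and those of NC livers on the scale of the 9, a few percent apart. Intervals are 95% intervals of that fit. Software was R 4.3.3, edgeR 4.0.16, limma 3.58.1 and DESeq2 1.42.0. Scripts were tested on simulated data.

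Each liver is a biological replicate by its label. Deviations of same-numbered livers correlated at 0.113, -0.0384 and 0.265, the last being the highest of the 9 pairs across hairpins. Since not every one was above 0.1, the numbers were not taken as pairs. No pair of libraries agreed within sampling noise. Genes named were the 10 of lowest p, the 12 of largest change in each direction at an unadjusted p under 0.05 with a mean of at least 5 CPM and no overlap between the groups, unnamed gene models left out, Fmo2 and the genes of the study's own assays, and up to 4 of lowest p in each of 57 lists. Further list members and DESeq2 calls were named after their values were seen. A gene that the rule reached is not reported here. Of the lists' 1438 genes, 1428 were in the table. The members and lists were chosen with earlier results of these data known. Transcript lengths, 3′ UTRs and target positions came from GENCODE release 21 of the mouse, and promoters from RefSeq GRCm38.p6. Alternatives were other scalings and filters, DESeq2, limma on FPKM, a fit of all 9 livers, a replicate block, each liver left out and, chosen after seeing the data, loess offsets of transcript length (span 0.5).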

Additional observations from a re-analysis of the deposited data

Results flagged for a closer look

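Gsap, which encodes the gamma-secretase activating protein, lay on opposite sides of the NC controls under the hairpins. On the scale of all 9 livers it had 24.4, 25.3 and 24.1 CPM in sh2 livers, 35.9, 34.6 and 37.0 CPM in sh1 livers and 28.3, 33.9 and 26.7 CPM in NC livers. Every sh2 liver was below and every sh1 liver above all 3 controls, and the log2 fold change of sh2 over sh1 was -0.5449 (edgeR adjusted p = 0.6435, DESeq2 adjusted p = 0.0478). The nearest values were 34.6 CPM in an sh1 liver and 33.9 CPM in an NC liver. Against the controls neither hairpin passed the adjusted test of edgeR (adjusted p = 0.12 for sh2 and 0.229 for sh1). The controls are shared by both hairpins, and the difference of the effects against them was not tested apart from this comparison. Of 13059 genes tested over all 9 livers, 18 showed this order and 4 the opposite one, sh2 above and sh1 below all controls. Gsap was singled out because it was the named gene with this order.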

How the results depend on the processing

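The count of genes past both thresholds was 0 under all alternatives run except DESeq2, which gave 8 (28 with no fold threshold), and leaving out sh2 replicate 3, which gave 2 by either threshold, so that the range over livers left out was 0 to 2. The count at an unadjusted p under 0.05, 965, ran from 475 (without sh1 replicate 2) to 1487 (without sh2 replicate 1) and was 918 with the replicate block, whose numbers were not taken as pairs. With all 9 livers in the fit it was 1365 and the count past both thresholds stayed at 0. With a fold above 2 added, the count of 80 ran from 59 to 174 over livers left out, and was 190 with no filter on low counts, 17 with limma on log2(FPKM + 1) and 48 on log2(FPKM + 0.1). The split of higher against lower genes, 467 against 498, was 619 against 389 with upper quartile factors, 337 against 635 with no factors and 252 against 578 with limma on log2(FPKM + 1). The difference between distances, 0.00553, was -0.0463 on the 500 genes of highest variance (exact permutation p = 0.8).

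Of 90 genes followed, 13 changed sign under some alternative. Ptbp1 was 0.0002571 with DESeq2, 0.00351 with RLE factors, 0.02531 with upper quartile factors and 0.0154 with length offsets, and -0.02541 to 0.01349 over livers left out. Ccl2 was -0.004884 and -0.01273 with limma, -0.141 with length offsets and -0.2717 to 0.2794 over livers left out, and Mki67 was 0.01262 with length offsets and -0.9218 to 0.3568 over livers left out. Over livers left out, Mmp2 ran from -0.1009 to 0.3204, Pik3r5 from -0.6236 to 0.09045, Ly6c1 from -0.3103 to 0.2368, Ly6c2 from -1.216 to 0.3247, Acta2 from -0.007292 to 0.9427, Ccnd1 from -0.1832 to 0.9099, Pcna from -0.09149 to 0.6553, Saa2 from -0.8721 to 6.291, Timp1 from -0.09434 to 0.717 and Tgfb1 from -0.2984 to 0.02035. Of 57 list medians 38 changed sign under some alternative. The cause was not tested. With 3 livers a side and 14265875 to 16679400 counts each, intervals of low genes stay wide.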
